A study of Mus musculus with 5 samples.

Results

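Collagens are the main structural proteins of the extracellular matrix, and the mouse genome holds a gene for each of their alpha chains. The collagen genes were taken from the RNA sequencing files as every protein-coding row whose symbol, assigned from the NCBIM37 annotation, reads Col, a number, the letter a and a number. This gave 43 genes among 22334 protein-coding rows and 37982 rows in all. *Col4a3bp* carries a longer symbol and was not taken, and the annotation lists *Col26a1* under its older symbol *Emid2*, so the rule did not take it either. The genes lie on 14 chromosomes and were grouped by the structure their proteins form. There were 8 basement membrane genes, 11 fibrillar genes, 6 microfibrillar genes of type VI, 4 transmembrane genes, 9 genes of the fibril-associated collagens with interrupted triple helices (FACIT) and 5 others.

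The study asked whether long-term hyperglycemia alters the vessels that form the blood-brain barrier. Microvascular fragments were isolated from brains of male C57BL6 mice of 26 to 38 weeks of age, 3 of them wild-type (WT) littermates and 2 heterozygous for *Ins2*-AKITA. This allele is a mutated copy of the insulin 2 gene that impairs the insulin-producing cells, and the mice become hyperglycemic. The fragments were captured with beads against the endothelial protein PECAM1 and carry pericytes and astrocyte end-feet along with the endothelium, so a value belongs to this mixture and not to 1 cell type. The deposited value is FPKM, a fragment number divided by exon length and by the mapped reads of the library, which is a level per length and can be compared between genes.

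A collagen chain consists largely of a repeat in which glycine is followed by a pair of other residues, and 3 such chains wind into a triple helix. Fibrillar collagens have a long uninterrupted helix and pack into fibrils, type IV collagen has breaks in its helix and forms the flexible network of the basement membrane, and type VI forms beaded microfilaments beside it. Around brain capillaries, endothelial cells and pericytes share a basement membrane in which type IV collagen is the main collagen. Transmembrane collagens span the plasma membrane of the cell that makes them, and FACIT collagens attach to the surface of fibrils.

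The repeat can be read in the coding sequence as a glycine codon, GGN, at every triplet of codons. The following stretches are shown because the classes differ in how far this repeat runs without a break. They come from the reference coding sequence of NCBIM37, read 5′ to 3′ with introns left out, and the glycine codons that keep the repeat are in capitals. In *Col4a1* (chr8:11244395-11245084, minus strand, exons 8 to 10), 10 codons without the repeat separate 5 repeats from 5 repeats. In *Col4a2* (chr8:11401256-11403350, plus strand, exons 7 to 10) the break is 12 codons long, and in the transmembrane collagen *Col25a1* (chr3:130225369-130233050, plus strand, exons 15 to 17) it is 2 codons long.
Col4a1: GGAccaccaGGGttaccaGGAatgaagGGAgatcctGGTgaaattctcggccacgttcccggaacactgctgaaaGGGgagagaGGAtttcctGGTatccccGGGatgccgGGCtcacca
Col4a2: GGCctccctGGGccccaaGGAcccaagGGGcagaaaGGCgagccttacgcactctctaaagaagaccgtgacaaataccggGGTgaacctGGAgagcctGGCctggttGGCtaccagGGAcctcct
Col25a1: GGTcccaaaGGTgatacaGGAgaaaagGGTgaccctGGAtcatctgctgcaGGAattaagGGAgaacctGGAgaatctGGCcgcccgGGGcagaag

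The next stretches are the first 10 repeats of the longest unbroken run in genes of other classes. They show *Col11a2* (chr17:34188219-34188469, plus strand, exons 14 to 15), the fibrillar gene of highest level, and *Col1a1* (chr11:94800765-94801253, plus strand, exons 6 to 8), the textbook fibrillar chain. Beside them stand *Col6a1* (chr10:76182368-76183741, minus strand, exons 8 to 9), the microfibrillar gene of highest level, and *Col9a3* (chr2:180339944-180340485, plus strand, exons 11 to 12), the FACIT gene with the smallest p between genotypes.
Col11a2: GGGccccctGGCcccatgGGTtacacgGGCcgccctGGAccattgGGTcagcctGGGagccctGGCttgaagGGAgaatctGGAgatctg
Col1a1: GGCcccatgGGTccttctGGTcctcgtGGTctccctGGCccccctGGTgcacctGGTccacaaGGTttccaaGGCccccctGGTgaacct
Col6a1: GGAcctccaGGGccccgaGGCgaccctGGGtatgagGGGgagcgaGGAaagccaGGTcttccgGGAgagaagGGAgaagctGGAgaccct
Col9a3: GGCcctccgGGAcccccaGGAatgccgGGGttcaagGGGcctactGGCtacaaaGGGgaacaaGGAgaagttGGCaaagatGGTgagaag

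Runs of at least 5 repeats were counted in the longest coding sequence of each gene. The longest run had between 216 and 344 repeats in the 11 fibrillar genes, where *Col24a1* with 216 and *Col27a1* with 217 stood apart from the other genes at 337 to 344. In the 8 basement membrane genes the longest run had 30 to 66 repeats, and the helix was split into 11 to 27 runs. It had 37 to 87 repeats in the microfibrillar genes, 40 to 55 in the transmembrane genes and 32 to 113 in the FACIT genes. The type IX chains *Col9a1*, *Col9a2* and *Col9a3* all had 113, while *Col12a1* and *Col14a1*, long proteins with a small collagen part, had 32. Collagen transcripts were also rich in G and C, with a median of 55.1% against 49.4% over all protein-coding genes.

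**Figure D1:**
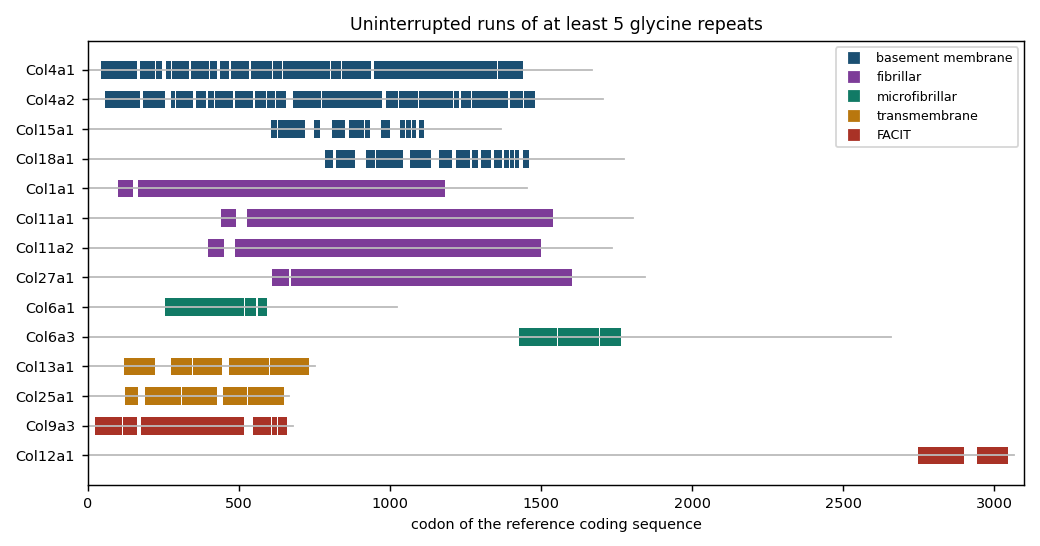
Uninterrupted runs of at least 5 glycine repeats (blocks) along the reference coding sequence (x axis, codon number; grey line, whole sequence) of 14 collagen genes, coloured by class. The fibrillar genes show long blocks, of 338 repeats in Col11a2, and the basement membrane genes many short blocks, 22 in Col4a1 and 24 in Col4a2.

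Each mouse gave 1 library, and the estimated depth was 1133400 to 2850960 fragments, highest in WT replicate 3. All 8 endothelial markers were above 0 in every mouse and summed to 433 to 756 FPKM in WT and 376 to 469 in *Ins2*-AKITA mice. Markers of other cell types were present as well. Over all mice, neuronal markers summed to 636 to 755, oligodendrocyte lineage markers to 1104 to 1688 and astrocyte markers to 1494 to 2990. Choroid plexus and ependyma markers summed to 692 to 2054, of which *Ttr* alone made up 669 to 1993. Small and ribosomal RNA genes made up 96.7%, 96.6% and 58.0% of all FPKM among WT mice, against 89.6% and 40.6% among *Ins2*-AKITA mice, whereas the FPKM sum over protein-coding genes was close to even, at 388375 to 421375.

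Of the 43 collagen genes, 41 were above 0 in every mouse and 35 reached the minimum for testing, an average FPKM of 1. *Col4a2* (113, 73.9 and 59.4 FPKM for WT replicates 1 to 3, with 74.3 and 56.4 for *Ins2*-AKITA replicates 1 and 2, the order used throughout) was the highest collagen gene and stood at percentile 93.5 of all tested genes in mean FPKM. *Col4a1*, *Col11a2*, *Col6a1*, *Col16a1*, *Col9a3* and *Col25a1* followed in that order. The 8 genes under the filter were *Col4a3*, *Col4a4*, *Col4a6*, *Col6a5*, *Col6a6*, *Col9a1*, *Col10a1* and *Col28a1*.

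**Figure D2:**
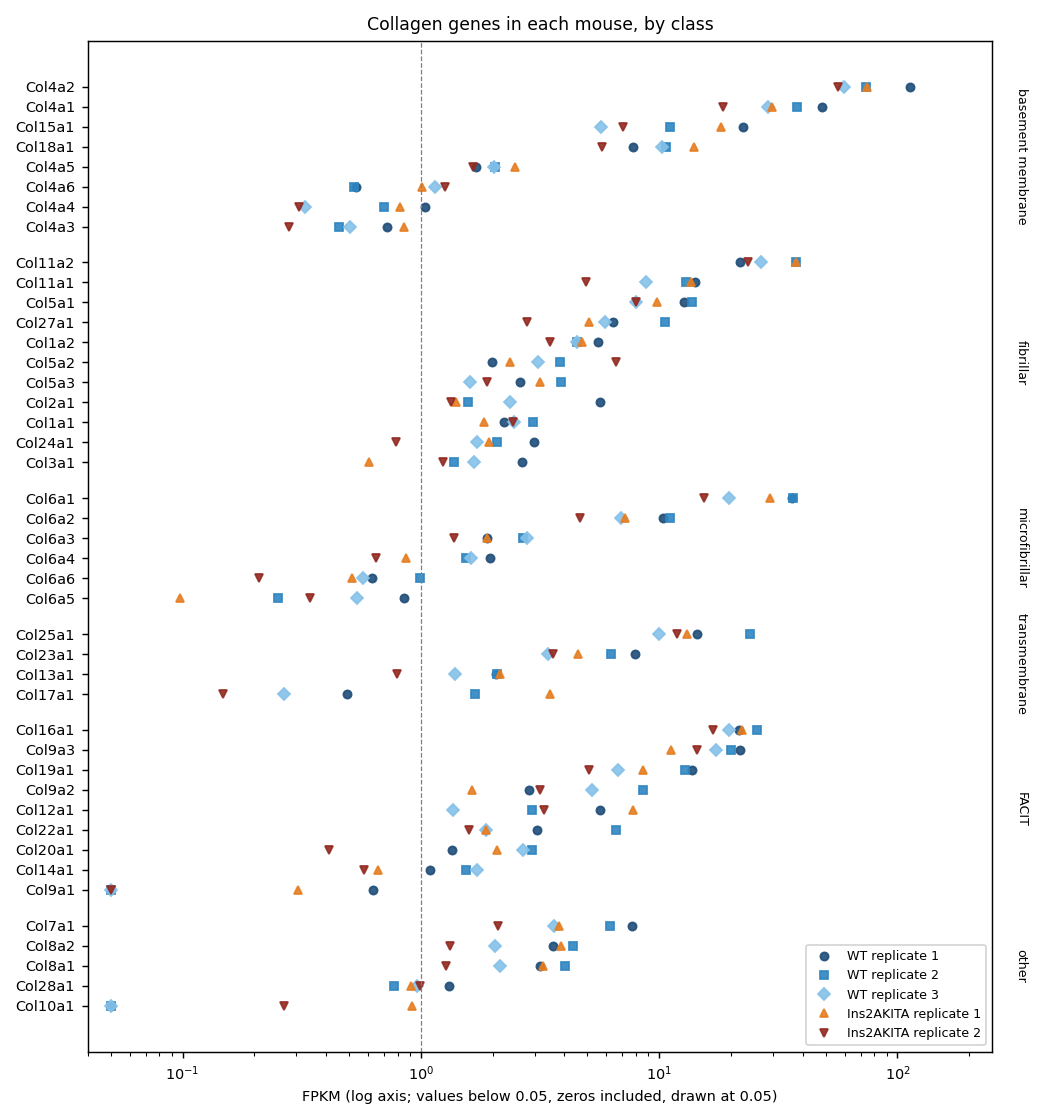
FPKM (x axis, log scale; values under 0.05 are drawn at 0.05) of the 43 collagen genes in each mouse, with rows grouped by class and ordered by mean level. Blue marks are the 3 WT mice, orange and red the 2 Ins2-AKITA mice, and the dashed line is the filter at a mean FPKM of 1. The red triangle, Ins2-AKITA replicate 2, is leftmost in 24 of the 35 tested genes.

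No collagen gene passed the test between genotypes. With limma and an adjusted p threshold of 0.05, 0 of 35 collagen genes were higher and 0 were lower in *Ins2*-AKITA mice, beside 0.0% and 0.0246% of all 16286 tested genes, and the smallest adjusted p of a collagen gene was 0.896. At an unadjusted limma p under 0.05 there was 1 collagen gene on the lower side, *Col9a3*, or 2.86% of the 35 against 2.93% of all tested genes, and 0 on the higher side against 1.53%. This count was 4 without WT replicate 3 (*Col4a1*, *Col7a1*, *Col9a3* and *Col19a1*) and 0 without WT replicate 2 or after a correction of each mouse for GC content, which was chosen after the data had been seen. When FPKM was rescaled to TPM and centred on the median of all tested genes, 3 collagen genes of low level (*Col6a4*, *Col14a1* and *Col20a1*) were called lower. On that scale the centring itself places low genes lower, so these calls are not read as lower expression. Shares of all tested genes are not given for any of these alternative settings, so their counts cannot be read against them.

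The tested collagen genes nevertheless lay mostly to one side. The log2 fold change of FPKM + 1, *Ins2*-AKITA minus WT, was below 0 in 29 of 35 collagen genes (82.9%) against 53.5% of all tested genes, and its median was -0.38 against -0.03. Over the other scalings, filters and fits that drew on all 5 mice, the collagen median lay between -0.47 and -0.28. A fit with the replicate number as a block gave -0.55. That value equals the median without WT replicate 3, which has no *Ins2*-AKITA mouse of its number. In these mixed fragments, fewer cells of a type and less RNA per cell cannot be told apart. Adding 1 makes this scale understate the difference of genes with low FPKM. Both *Ins2*-AKITA mice lay below all WT mice in 8 collagen genes (22.9%, against 10.3% of all tested genes), and both lay above in 0 (against 9.24%). The 8 genes were the fibrillar *Col2a1*, *Col3a1* and *Col27a1*, the microfibrillar *Col6a3* and *Col6a4*, and the FACIT genes *Col9a3*, *Col14a1* and *Col22a1*.

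The mice of 1 genotype were not alike. *Ins2*-AKITA replicate 2 had the lowest value of the 5 mice in 24 of the 35 genes (68.6%, against 23.2% of all tested genes), and *Ins2*-AKITA replicate 1 in 4 (11.4%, against 16.4%). Among the WT mice, replicate 3 was lowest in 23 genes (65.7%, against 40.1%). The median over the 35 genes was -0.63 when *Ins2*-AKITA replicate 1 was left out, -0.19 when *Ins2*-AKITA replicate 2 was left out and -0.55 when WT replicate 3 was left out.

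**Figure D3:**
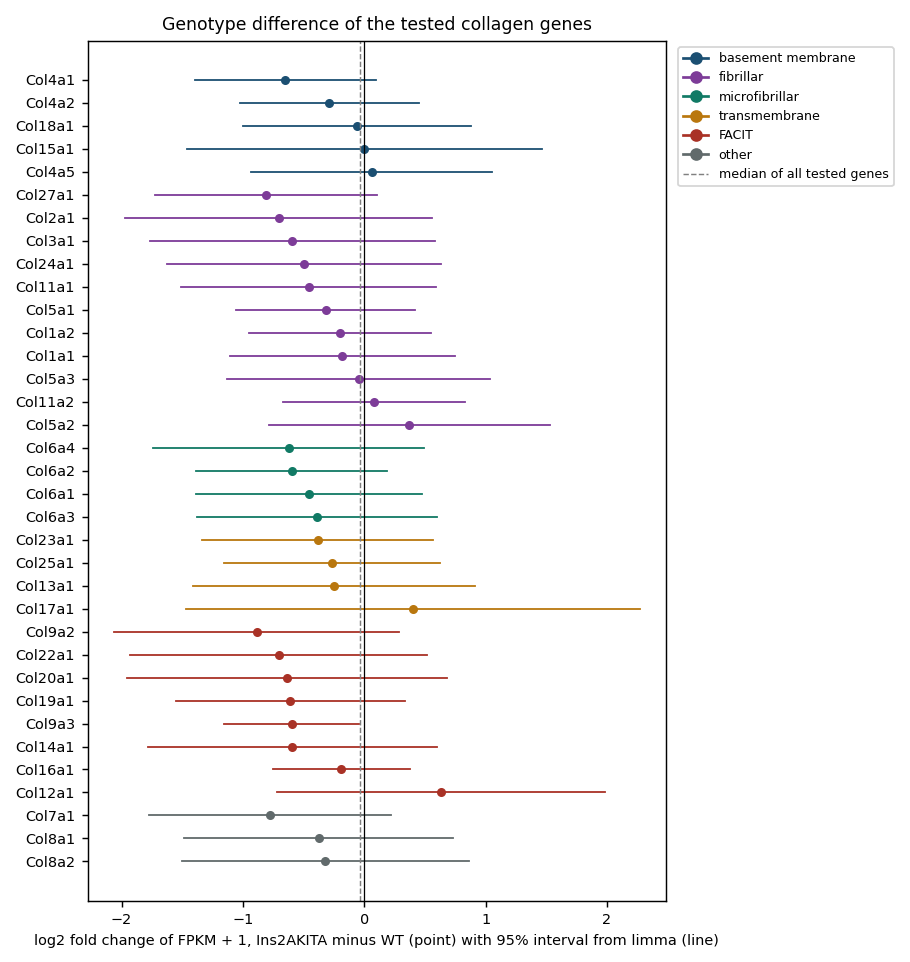
Log2 fold change of FPKM + 1 (x axis, Ins2-AKITA minus WT) of the 35 tested collagen genes with its 95% interval from limma, coloured by class and ordered within it. Points lie left of 0 in 29 genes, and the interval stays under 0 in Col9a3 only, before adjustment for the number of genes tested; the dashed line is the median of all 16286 tested genes at -0.03.

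Summed over all 43 genes, collagen FPKM was 439, 416 and 288 for the WT mice, with 356 and 239 for *Ins2*-AKITA mice. The means were 381 ± 81.6 (SD, n = 3) in WT and 297 ± 82.7 (SD, n = 2) in *Ins2*-AKITA. This difference was about as large as the SD of either genotype, and the groups overlapped. The order of the 5 mice in this sum was the same as their order in the share of small and ribosomal RNA, from WT replicate 1 down to *Ins2*-AKITA replicate 2. Endothelial marker sums were also lowest in *Ins2*-AKITA replicate 2 (376) and, within WT, in replicate 3 (433). Pericyte marker sums had the same lowest mice (180 and 204), whereas within WT those of smooth muscle and astrocytes were lowest in replicate 1. The part of small RNA share or of these cell types in the collagen values was not tested. The comparison was repeated among mice nearer to each other in small RNA share, a split chosen after the data had been seen. The *Ins2*-AKITA mouse still had the lower share in each part, at 89.6% against 96.7% and 96.6%, and 40.6% against 58.0%. This split therefore cannot separate genotype from share.

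Among the libraries with a high share, WT replicates 1 and 2 and *Ins2*-AKITA replicate 1, the median over the 35 collagen genes was -0.29 against -0.04 for all tested genes, and 26 collagen genes lay below 0, against 53.2% of all tested genes. Between the libraries with a low share, WT replicate 3 and *Ins2*-AKITA replicate 2, the median was -0.33 against 0.01, and 29 collagen genes lay below 0, against 46.5%, with 1 mouse of each genotype and no test. After the correction for GC content, with all 5 mice, the collagen median was -0.28 against 0.02.

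**Figure D4:**
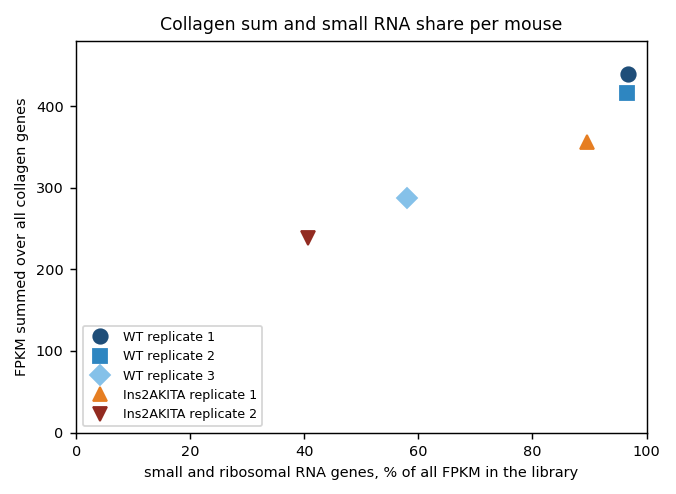
FPKM summed over all 43 collagen genes (y axis) against the percentage of FPKM in small and ribosomal RNA genes (x axis), with 1 mark per mouse. The sum runs from 239 in Ins2-AKITA replicate 2, at 40.6%, to 439 in WT replicate 1, at 96.7%.

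In each mouse the basement membrane genes made up the largest part of collagen FPKM, between 33.0% and 44.5%. Their sum was 195, 137 and 108 among WT mice, against 141 and 91.2 among *Ins2*-AKITA mice. Fibrillar genes summed to 78.9, 95.1 and 67.1 for the WT mice, with 81.8 and 57.2 for *Ins2*-AKITA mice. In both classes *Ins2*-AKITA replicate 1 lay among the WT mice and replicate 2 below them.

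Microfibrillar genes summed to 51.9, 52.9 and 32.1 among WT mice, against 39.9 and 22.7 among *Ins2*-AKITA mice. Transmembrane genes summed to 24.9, 34.1 and 15.1 for the WT mice, with 23.3 and 16.4 for *Ins2*-AKITA mice. Mean sums were 1.26 times as high in WT as in *Ins2*-AKITA mice for the basement membrane, 1.16 times for the fibrillar, 1.46 times for the microfibrillar and 1.24 times for the transmembrane class. The genotypes overlapped in each of these 4 classes. FACIT genes summed to 71.99, 81.3 and 56.6 among WT mice, against 56.4 and 45.2 among *Ins2*-AKITA mice. Both *Ins2*-AKITA sums were below all WT sums, the first of them barely. The other collagens summed to 15.8, 15.4 and 8.80 for the WT mice, with 12.8 and 5.97 for *Ins2*-AKITA mice.

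Class medians of the log2 fold change were -0.06 over 5 tested basement membrane genes, -0.32 over 11 fibrillar genes, -0.53 over 4 microfibrillar genes and -0.26 over 4 transmembrane genes. The values below 0 were 3 of 5, 9 of 11, 4 of 4 and 3 of 4 in the same order. FACIT genes had a median of -0.60 with 7 of 8 below 0, and the other collagens -0.38 with 3 of 3. The multiplexins *Col15a1* and *Col18a1* have interrupted helices and sit in the basement membrane zone. Without them 3 tested genes were left, and the basement membrane median was -0.29, the value of *Col4a2*. Leaving out *Ins2*-AKITA replicate 1 gave a basement membrane median of -0.63 and leaving out *Ins2*-AKITA replicate 2 gave 0.26, so the direction of this class rested on single mice. The class median was 0.03 after quantile normalization, 0.11 after the correction for GC content and 0.18 among the high small RNA libraries. The medians of all tested genes in these settings were 0.03, 0.02 and -0.04, against -0.03 in the main fit. The transmembrane median was -0.55 without *Ins2*-AKITA replicate 1, -0.46 without WT replicate 3, -0.072 without WT replicate 2 and -0.026 without *Ins2*-AKITA replicate 2, and -0.54 on centred TPM. The microfibrillar median ran from -0.79 without *Ins2*-AKITA replicate 1 to -0.29 without *Ins2*-AKITA replicate 2.

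**Figure D5:**
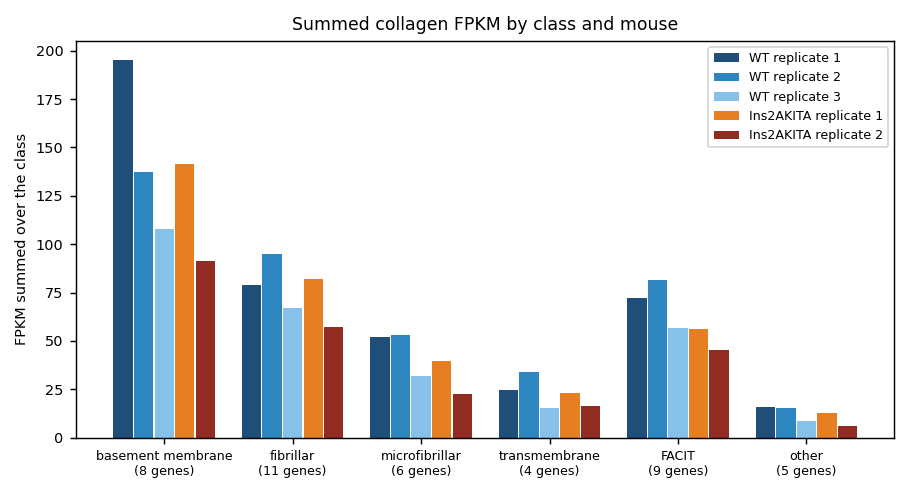
FPKM summed over the genes of each collagen class (y axis, from 0) with 1 bar per mouse. The basement membrane bars are highest in every mouse, from 91.2 to 195, and the bar of Ins2-AKITA replicate 2 is the lowest of the 5 in each class but the transmembrane class, where WT replicate 3 at 15.1 is lower.

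*Col4a1* and *Col4a2* encode the chains of the type IV network found in nearly all basement membranes. They lie head to head on chromosome 8, *Col4a1* on the minus strand (11198423 to 11312826) and *Col4a2* on the plus strand (11312805 to 11449287), and overlap by 22 bases. *Col4a1* measured 48.4, 37.9 and 28.6 FPKM among WT mice, against 29.8 and 18.5 among *Ins2*-AKITA mice. *Ins2*-AKITA replicate 2 had the lowest value and replicate 1 lay just above WT replicate 3, so the groups overlapped. The log2 fold change of *Col4a1* was -0.65 ± 0.31 (SE) with an adjusted p of 0.896 in limma.

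For *Col4a2*, whose values are given above, the log2 fold change was -0.29 ± 0.31 (SE), with an adjusted p of 0.902 in limma. It was -0.033 without WT replicate 1, -0.090 without *Ins2*-AKITA replicate 2 and -0.49 without WT replicate 3. *Ins2*-AKITA replicate 1 lay next to WT replicate 2, and *Ins2*-AKITA replicate 2 just under WT replicate 3. The level of *Col4a2* was 2.33, 1.95 and 2.08 times that of *Col4a1* among WT mice, against 2.49 and 3.05 times among *Ins2*-AKITA mice. In this ratio of levels per length, both *Ins2*-AKITA mice lay above all WT mice. It was 1 of 9 ratios between partner chains, and no test was made of it.

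The other type IV chains, which form the networks of specialised basement membranes such as that of the kidney glomerulus, were far lower. *Col4a5* had 1.66 to 2.49 FPKM over the 5 mice, and *Col4a3*, *Col4a4* and *Col4a6* stood below the filter with 0.28 to 1.26. Their genes also form head-to-head pairs, *Col4a3* with *Col4a4* on chromosome 1, 71 bases apart, and *Col4a5* with *Col4a6* on the X chromosome, 1308 bases apart.

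*Col15a1* and *Col18a1* are multiplexins, whose C-terminal fragments (endostatin in the case of *Col18a1*) are known to restrain vessel growth. *Col15a1* measured 22.4, 11.1 and 5.69 FPKM for the WT mice, with 18.1 and 7.03 for *Ins2*-AKITA mice. Both *Ins2*-AKITA values lay inside the WT range, which was wide. *Col18a1* measured 7.78, 10.7 and 10.3 FPKM among WT mice, against 13.9 and 5.78 among *Ins2*-AKITA mice. The *Ins2*-AKITA mice lay on either side of all WT mice, and the log2 fold change was -0.06 ± 0.39 (SE) for *Col18a1* and 0.0012 ± 0.60 (SE) for *Col15a1*.

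Fibrillar collagens of types XI and V regulate the width of fibrils, and *Col11a2* and *Col11a1* were the highest fibrillar genes. *Col11a2* measured 21.9, 37.6 and 26.8 FPKM for the WT mice, with 37.4 and 23.7 for *Ins2*-AKITA mice. *Col11a1* measured 14.2, 12.9 and 8.80 FPKM among WT mice, against 13.5 and 4.94 among *Ins2*-AKITA mice. For both genes the value of *Ins2*-AKITA replicate 1 was inside the WT range, and for *Col11a1* replicate 2 lay below all other mice. The log2 fold change was 0.08 ± 0.31 (SE) for *Col11a2* and -0.46 ± 0.43 (SE) for *Col11a1*, with adjusted p of 0.974 and 0.902 in limma. Without *Ins2*-AKITA replicate 2 the value of *Col11a1* was 0.19, and without *Ins2*-AKITA replicate 1 it was -1.10.

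*Col5a1*, a chain of type V collagen, measured 12.8, 13.8 and 8.02 FPKM for the WT mice, with 9.76 and 7.98 for *Ins2*-AKITA mice. For *Col5a1* the log2 fold change was -0.32 ± 0.30 (SE). *Col5a2*, the partner chain, measured 1.98, 3.84 and 3.11 FPKM among WT mice, against 2.36 and 6.60 among *Ins2*-AKITA mice. Here *Ins2*-AKITA replicate 2, lowest in most collagen genes, was the highest of the 5 mice, and *Col5a2* had a positive log2 fold change of 0.37 ± 0.48 (SE).

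*Col27a1*, a fibrillar collagen of cartilage with a shorter helix, measured 6.38, 10.5 and 5.94 FPKM for the WT mice, with 5.07 and 2.79 for *Ins2*-AKITA mice. Both *Ins2*-AKITA values lay below all WT values, and the log2 fold change of -0.81 ± 0.38 (SE) was the lowest of the class, with an adjusted p of 0.896 in limma. *Col2a1*, the main collagen of cartilage, measured 5.63, 1.58 and 2.37 FPKM among WT mice, against 1.40 and 1.34 among *Ins2*-AKITA mice. *Col3a1*, found with type I collagen in vessel walls, measured 2.65, 1.38 and 1.67 FPKM for the WT mice, with 0.604 and 1.24 for *Ins2*-AKITA mice. The groups did not overlap in either gene, but the *Ins2*-AKITA values rested on an estimated 7.8 and 8.4 fragments for *Col2a1* and 3.7 and 8.5 for *Col3a1*.

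*Col1a1* and *Col1a2*, the chains of type I collagen, ran from 1.84 to 5.56 FPKM over the 5 mice, and *Col5a3* and *Col24a1* from 0.787 to 3.87. The genotypes overlapped in these 4 genes, and their log2 fold changes lay between -0.49 and -0.05.

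*Col6a1*, *Col6a2* and *Col6a3* encode the chains of the classical type VI heterotrimer, which anchors basement membranes to the matrix around them. *Col6a1* measured 36.2, 36.4 and 19.7 FPKM among WT mice, against 29.3 and 15.5 among *Ins2*-AKITA mice. *Col6a2* measured 10.4, 11.1 and 6.92 FPKM for the WT mice, with 7.19 and 4.64 for *Ins2*-AKITA mice. In both genes the same order held, with WT replicates 1 and 2 highest, then *Ins2*-AKITA replicate 1, WT replicate 3 and *Ins2*-AKITA replicate 2. The log2 fold changes were -0.46 ± 0.38 (SE) and -0.60 ± 0.32 (SE), with adjusted p of 0.902 and 0.896 in limma. For *Col6a1* the log2 fold change was -0.016 without *Ins2*-AKITA replicate 2 and -0.90 without *Ins2*-AKITA replicate 1, and for *Col6a2* it ran from -0.87 to -0.33 with each mouse left out.

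*Col6a3* measured 1.895, 2.68 and 2.80 FPKM among WT mice, against 1.892 and 1.38 among *Ins2*-AKITA mice. *Ins2*-AKITA replicate 1 and WT replicate 1 were almost level, and the log2 fold change was -0.39 ± 0.41 (SE). *Col6a4*, an alternative type VI chain, measured 1.95, 1.55 and 1.63 FPKM for the WT mice, with 0.867 and 0.651 for *Ins2*-AKITA mice. Both *Ins2*-AKITA mice lay below all WT mice, and the exact permutation test gave p = 0.1, the smallest that 3 against 2 mice allow. The *Ins2*-AKITA values of *Col6a4* rested on an estimated 7.1 and 6.1 fragments, its log2 fold change was -0.62 ± 0.46 (SE), and its adjusted p in limma was 0.897.

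*Col25a1*, the precursor of a component of amyloid plaques, was the highest transmembrane gene. It measured 14.4, 24.0 and 10.03 FPKM among WT mice, against 13.1 and 11.9 among *Ins2*-AKITA mice. *Col23a1* measured 7.88, 6.28 and 3.42 FPKM for the WT mice, with 4.57 and 3.58 for *Ins2*-AKITA mice. In both genes the *Ins2*-AKITA mice lay within the WT range, and WT replicate 3 was the lowest mouse. The log2 fold changes were -0.27 ± 0.37 (SE) and -0.38 ± 0.39 (SE).

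*Col17a1*, a hemidesmosome protein of epithelia, measured 0.489, 1.69 and 0.267 FPKM among WT mice, against 3.50 and 0.148 among *Ins2*-AKITA mice. The *Ins2*-AKITA mice held both the highest and the lowest value, which rested on an estimated 21.2 and 1.0 fragments, and the positive log2 fold change of 0.40 ± 0.77 (SE) came with the widest interval of the family, from -1.47 to 2.27. *Col13a1*, the remaining transmembrane gene, lay between 0.797 and 2.15 FPKM over the 5 mice.

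*Col9a3* was the collagen gene with the smallest p in the limma fit with a trend. With a constant prior the only collagen gene at an unadjusted limma p under 0.05 was *Col6a4*, and without WT replicate 1 it was *Col9a2*. *Col9a3* encodes a chain of type IX collagen, which coats cartilage fibrils. It measured 21.9, 20.1 and 17.3 FPKM for the WT mice, with 11.2 and 14.3 for *Ins2*-AKITA mice. Both *Ins2*-AKITA mice lay below all WT mice, and unlike most of the family the lower of them was replicate 1. The means were 19.8 ± 2.30 (SD, n = 3) in WT and 12.8 ± 2.25 (SD, n = 2) in *Ins2*-AKITA mice, and the exact permutation test gave p = 0.1, the smallest possible. In limma the log2 fold change was -0.60 ± 0.23 (SE, 95% interval -1.15 to -0.04), with an unadjusted p of 0.0384 and an adjusted p of 0.896. It remained below 0 with each mouse left out, from -0.77 to -0.43.

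On chromosome 2, 8.07% of the exon bases of *Col9a3* overlap the gene *Tcfl5* on the opposite strand. The libraries were stranded, but whether the authors counted by strand is not given in the sources used here. The partner chain *Col9a2* measured 2.86, 8.55 and 5.24 FPKM among WT mice, against 1.64 and 3.15 among *Ins2*-AKITA mice, with *Ins2*-AKITA replicate 1 lowest as in *Col9a3*. Its log2 fold change of -0.89 ± 0.49 (SE) was the lowest of the family, with an adjusted p of 0.896 in limma, and the groups overlapped. *Col9a1*, the last type IX chain, was listed at 0 in 3 of the 5 mice.

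*Col16a1*, which is found near basement membranes and small fibrils, measured 21.7, 25.8 and 19.7 FPKM for the WT mice, with 22.3 and 16.8 for *Ins2*-AKITA mice. *Col19a1*, a collagen that neurons also make, measured 13.8, 12.8 and 6.69 FPKM among WT mice, against 8.56 and 5.08 among *Ins2*-AKITA mice. The groups overlapped in both, and the log2 fold changes were -0.19 ± 0.23 (SE) and -0.61 ± 0.39 (SE).

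*Col12a1*, a FACIT collagen of dense connective tissue, ran the other way. It measured 5.64, 2.94 and 1.37 FPKM for the WT mice, with 7.79 and 3.28 for *Ins2*-AKITA mice. *Ins2*-AKITA replicate 1 was the highest mouse and replicate 2 was inside the WT range. Its log2 fold change of 0.63 ± 0.56 (SE) was the highest of the family and did not pass the test (adjusted p of 0.902 in limma).

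*Col22a1*, known from tissue junctions such as that of muscle and tendon, measured 3.06, 6.58 and 1.879 FPKM among WT mice, against 1.878 and 1.60 among *Ins2*-AKITA mice. *Col14a1*, which binds fibrils and regulates their growth, measured 1.10, 1.55 and 1.72 FPKM for the WT mice, with 0.658 and 0.577 for *Ins2*-AKITA mice. In *Col14a1* both *Ins2*-AKITA mice lay well below the lowest WT mouse, with an estimated 4.6 fragments in each, while in *Col22a1* *Ins2*-AKITA replicate 1 nearly equalled WT replicate 3. The log2 fold changes were -0.71 ± 0.51 (SE) for *Col22a1* and -0.59 ± 0.49 (SE) for *Col14a1*.

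Among the other collagens, *Col7a1*, which forms the anchoring fibrils of skin, had the highest mean. It measured 7.72, 6.21 and 3.62 FPKM among WT mice, against 3.81 and 2.11 among *Ins2*-AKITA mice, with *Ins2*-AKITA replicate 1 just above WT replicate 3, and its log2 fold change was -0.78 ± 0.41 (SE) with an adjusted p of 0.896 in limma. The short-chain network collagens *Col8a1* and *Col8a2*, known from vessel walls and the cornea, lay between 1.27 and 4.34 FPKM over the 5 mice. *Col10a1*, a collagen of growth plate cartilage, was listed at 0 in the 3 WT mice and at 0.916 and 0.268 FPKM in the *Ins2*-AKITA mice. These values stand for about 3.0 and 1.0 fragments by the depth estimate, and 3 fragments would give an FPKM of 0.363 to 0.887 in the WT mice, so no fold is given. Of the genes not yet described, *Col20a1* lay between 0.410 and 2.92 FPKM, *Col28a1* between 0.774 and 1.31, and *Col6a5* and *Col6a6* between 0.0978 and 0.992 over the 5 mice.

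*Col26a1*, which the annotation lists as *Emid2* and which therefore entered none of these counts, was looked at after the values had been seen. It measured 8.27, 9.77 and 3.85 FPKM among WT mice, against 2.13 and 3.14 among *Ins2*-AKITA mice, and both *Ins2*-AKITA mice lay below all WT mice.

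A collagen chain needs hydroxylation of its prolines and lysines, folding, cleavage of its ends and cross-linking before it is part of the matrix, and cells sense it through receptors. Of 19 measured genes for chain folding and modification, 0 passed limma at an adjusted p of 0.05 and 1 was lower at an unadjusted p under 0.05, beside 2.93% of all tested genes. This was *Plod1*, a lysyl hydroxylase, which measured 17.6, 15.97 and 20.7 FPKM for the WT mice, with 11.1 and 12.1 for *Ins2*-AKITA mice. Both *Ins2*-AKITA mice lay below all WT mice, and the log2 fold change was -0.60 ± 0.22 (SE). The highest gene of this list, *P4hb*, which is protein disulfide isomerase and a subunit of prolyl 4-hydroxylase, measured 55.4, 44.8 and 39.1 FPKM among WT mice, against 38.8 and 52.5 among *Ins2*-AKITA mice.

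Of 8 genes for cleavage of propeptides, 6 were tested, 0 passed at either threshold in limma and 6 of 6 log2 fold changes were below 0, with a median of -0.41, beside 53.5% below 0 and a median of -0.03 over all tested genes. Their highest gene, *Bmp1*, the procollagen C-proteinase, measured 41.8, 28.9 and 15.7 FPKM for the WT mice, with 21.4 and 12.3 for *Ins2*-AKITA mice. As in the collagen sum, WT replicate 3 and *Ins2*-AKITA replicate 2 were the lowest mice.

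For cross-linking and assembly, 9 of 11 genes were tested in limma, 0 passed at an adjusted p of 0.05 and 1, *Loxl3*, was higher at an unadjusted p under 0.05, beside 1.53% of all tested genes. *Loxl3*, of the lysyl oxidase family that cross-links collagen and elastin, measured 1.69, 2.81 and 2.95 FPKM among WT mice, against 4.23 and 10.7 among *Ins2*-AKITA mice, with a log2 fold change of 1.19 ± 0.46 (SE). Both *Ins2*-AKITA mice lay above all WT mice. The highest gene of the list, *Sparc*, a collagen-binding matrix protein, measured 394, 292 and 336 FPKM for the WT mice, with 309 and 391 for *Ins2*-AKITA mice, and the groups overlapped.

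Of 10 receptor genes, 7 were tested and 0 passed limma at either threshold. *Itgb1*, the beta subunit shared by the collagen-binding integrins, was highest with 32.7, 33.4 and 44.3 FPKM among WT mice, against 33.9 and 27.1 among *Ins2*-AKITA mice. The median log2 fold change was -0.12 for folding and modification, 0.04 for cross-linking and assembly and -0.10 for receptors, nearer to that of all genes (-0.03) than the collagen median of -0.38.

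Several cell types make vascular collagens. Smooth muscle markers summed to 220, 269 and 240 FPKM for the WT mice, with 175 and 138 for *Ins2*-AKITA mice, and 4 of their 5 genes lay lower in both *Ins2*-AKITA mice than in any WT mouse, beside 10.3% of all tested genes. Of these, *Acta2*, *Myh11* and *Tagln* were lower at an unadjusted limma p under 0.05, beside 2.93% of all tested genes. Astrocyte markers summed to 1494 to 2198 in WT and 2609 to 2990 in *Ins2*-AKITA mice. Among them, 3 of 6 genes were higher in both *Ins2*-AKITA mice than in any WT mouse, beside 9.24% of all tested genes. *Aldh1l1* was higher at an unadjusted limma p under 0.05, beside 1.53% of all tested genes. Of 8 endothelial markers, 3 were lower in both *Ins2*-AKITA mice, beside the same 10.3%, and the median log2 fold change was -0.39. *Cdh5* was lower at an unadjusted limma p under 0.05, beside the same 2.93%. These marker genes were named after their values had been seen. No gene of these lists passed limma at an adjusted p of 0.05, and their part in the collagen values was not tested.

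Pericyte marker sums (204 to 252 FPKM in WT, 180 and 228 in *Ins2*-AKITA mice) and those of fibroblast and leptomeningeal markers (23.6 to 35.2 in WT, 27.6 and 29.4 in *Ins2*-AKITA mice) overlapped between genotypes. Of the 8 fibroblast and leptomeningeal markers, *Dpt* was listed at 0 in every mouse and *Lum* in *Ins2*-AKITA replicate 2. Choroid plexus and ependyma markers, mostly *Ttr*, summed to 1819, 2054 and 692 among WT mice, against 1838 and 985 among *Ins2*-AKITA mice. As in the transmembrane collagens, WT replicate 3 was lowest and *Ins2*-AKITA replicate 2 next.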

How the data were processed

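RNA of brain microvascular fragments was sequenced with 1 library per mouse. The authors depleted ribosomal and transfer RNA, made stranded total RNA libraries, mapped reads to NCBIM37 with TopHat2 2.0.4, removed duplicates with Picard 1.92 and tested with Cufflinks 2.2.1. Each deposited file lists FPKM for the genes of 1 mouse, and the program that made them and the annotation release are not given in the sources used here. Removing duplicates can lower high genes, and FPKM of 1 mouse rests on few fragments for low genes.

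Rows were matched to the GENCODE vM1 annotation (37197 matched, 785 not), rows of 1 symbol were summed, and the 16286 symbols of 34615 with a mean FPKM of at least 1 entered a limma fit (version 3.58.1, R 4.3.3; two-sided, trend, genotype as the only factor) on log2(FPKM + 1) with Benjamini-Hochberg adjustment at 0.05. Single genes were tested with a two-sided exact permutation test over 10 splits. Depth was estimated from FPKM steps of 1 fragment. With a tolerance of 0.03 fragments, 97.68% to 98.02% of the values used were whole. Such counts cover counting error only. Glycine repeats were read with Python 3.11.15. The fit was tested on simulated data.

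Members and lists were chosen with earlier results of these data known. Named genes were collagens with a mean FPKM of at least 5, those without overlap of genotypes, those at an unadjusted p under 0.05, the 3 most extreme per direction, the highest of each class and those the study lists. From the pathway lists, genes at an unadjusted p under 0.05 and the highest gene were named. A gene named only in a group count or as a range was not chosen by this rule. The alternatives were another pseudocount, filters, scalings, TPM, a constant prior, protein-coding genes only, the highest row per symbol, the replicate number as a block and each mouse left out. A GC correction and strata by small RNA share were added after the data had been seen.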

Additional observations from a re-analysis of the deposited data

How the results depend on the processing

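The count of collagen genes past the adjusted threshold remained 0 on the higher side under every alternative with a test, and on the lower side under all but TPM centred on the median of all tested genes, which gave 3, with 10 at an unadjusted p under 0.05 and 1 gene of the pathway lists (*Itga10*) called. TPM moved the median of all tested genes by 1.07 (log2) before centring. FPKM were divided by 13.0, 12.2 and 3.54 for the WT mice, with 4.02 and 1.53 for *Ins2*-AKITA mice, before 1 was added. Values of low genes were then small beside the added 1 in each mouse, and centring placed them lower by construction. The calls on this scale are therefore not read as lower expression. The unadjusted count was 2 with the replicate block (*Col4a1* and *Col7a1*), 0 after the GC correction and 0 to 4 with each WT mouse left out. Shares of all tested genes are not given for these settings, so the counts cannot be read against them. With the block the fibrillar median was -0.54. WT replicate 3 has no *Ins2*-AKITA mouse of its number, so the log2 fold changes of the block fit equal those without that mouse. No paired origin of same-numbered mice is stated, and with 2 *Ins2*-AKITA mice, whose deviations from their mean are opposite by construction, the data cannot show one. With each mouse left out, class medians ran from -0.63 to 0.26 (basement membrane) and from -0.54 to -0.19 (fibrillar), and the log2 fold changes that changed sign from -1.10 to 0.19 (*Col11a1*), -0.24 to 0.40 (*Col11a2*), -0.63 to 0.63 (*Col15a1*), -0.39 to 0.0054 (*Col16a1*), -0.58 to 1.39 (*Col17a1*), -0.63 to 0.51 (*Col18a1*), -0.55 to 0.046 (*Col25a1*) and -0.22 to 0.96 (*Col5a2*). On centred TPM the values that changed sign were 0.16 (*Col16a1*), -0.67 (*Col17a1*), 0.013 (*Col25a1*), 0.28 (*Col4a2*) and -0.035 (*Col5a2*). Among the high small RNA libraries they were 0.00098 (*Col11a1*), 0.56 (*Col18a1*) and -0.18 (*Col5a2*), and between the low ones -0.17 (*Col11a2*), -0.14 (*Col17a1*), 0.049 (*Col23a1*) and 0.22 (*Col25a1*). *Col15a1* was -0.038 with equal protein-coding sums and -0.44 with the block, and *Col18a1* was 0.032 after quantile normalization and 0.11 after the GC correction. None of these genes passed under those settings that had a test, and between the low small RNA libraries no test was made. Depth limits the low collagens: genes near the filter rest on fewer than 10 estimated fragments in some mice.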
